A study of Danio rerio with 8 samples.

Results

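The response of whole zebrafish embryos to depletion of Tbx5a was described from the MO-Tbx5a arrays (n = 3) and the MO-Ct arrays (n = 2), which are 5 of the 8 arrays of the series, chosen by their titles. Each array carried Cy3-labelled RNA from 50 pooled AB embryos, taken 24 h after fertilisation (24 hpf). MO-Tbx5a embryos had received 1.5 ng of a morpholino, an antisense oligonucleotide, directed at the start of translation of tbx5a, and MO-Ct embryos 1.5 ng of a control morpholino, both at the 1-cell stage. Embryos of both groups had also received 0.25 ng of a control microRNA mimic. The question addressed by this comparison is which transcripts move when Tbx5a is depleted, and it is asked here of tissues, pathways and gene families. The other 3 arrays (the same morpholino with a miR-19a mimic) entered the fit only for the estimate of spread between arrays.

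Tbx5 is a T-box transcription factor needed for the heart and for the pectoral fin, the counterpart of the forelimb, and zebrafish embryos that lack Tbx5a form a thin stretched heart and no pectoral fins. At 24 hpf the heart tube is only beginning to beat, the somites along the trunk are filled with young muscle, the lens is laying down its crystallins and the embryo still lives from its yolk. The heart is a small part of such an embryo, so RNA from trunk, head and yolk tissues makes up most of each pool. A morpholino against the start of translation blocks the protein and can leave the RNA in place. The tbx5a transcript is not analysed here, and depletion was not checked on the arrays. Its paralogue tbx5b had 1 probe, with log2 values of 5.26, 5.14 and 4.9 in MO-Tbx5a and 4.98 and 4.71 in MO-Ct, near the lower end of the scale. It was not called (0.26, SE 0.14, limma adjusted p = 0.177).

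Values are log2 expression values and every change is MO-Tbx5a minus MO-Ct on that scale. A probe was called when its fold change was above 1.3 and limma gave p under 0.05 both before and after Benjamini-Hochberg adjustment over 39162 probes. In MO-Tbx5a 7336 probes were higher (18.7%) and 7694 lower (19.6%). MO-Tbx5a and MO-Ct values were without overlap at 99.3% of called probes and at 62% of all probes. Called probes were chosen for a difference between the groups, so the first share is not a separate result. Distances over all probes were 38.9 to 59.8 among MO-Tbx5a arrays and 47.0 between the MO-Ct arrays, against 105 to 130 between arrays of different groups. With 15030 probes called, a single called probe says little about a gene, and weight was given to genes with 2 or more probes, of which there were 7505.

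A gene is described below as having risen or fallen when 2 or more of its probes were called in that direction and none in the other. By this rule 587 genes rose (7.82% of 7505) and 980 fell (13.1%), and these shares are the background for each gene list. A further 621 genes had called probes in both directions, 2909 had 1 called probe and 2408 had none. Of the 5287 genes with a single probe 1240 were lower and 654 higher, the background for counts of single-probe genes below. Of the 2188 genes with 2 or more called probes, 71.6% had all called probes in 1 direction and 28.4% had probes in conflict. Over the 4617 genes with exactly 2 probes the changes of both probes had the same sign in 62.1%, with r = 0.358 and rho = 0.352 across genes. Genes are not independent replicates and these values describe the probes. Without MO-Ct replicate 2 the counts were 372 genes higher and 646 lower.

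**Figure D1:**
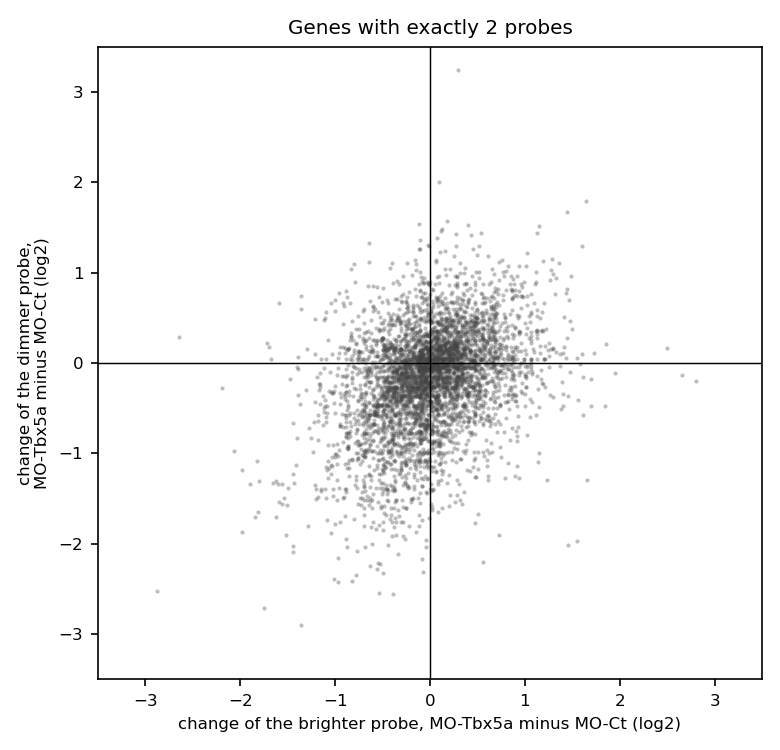
Changes (MO-Tbx5a minus MO-Ct, log2) of the brighter probe (x axis) and the dimmer probe (y axis) of each of the 4617 genes with exactly 2 probes, 1 point per gene. Points in the lower left and upper right corners are genes whose probes changed in the same direction (62.1%), and points along either axis are genes in which 1 probe moved alone.

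Falls were more frequent among genes with bright probes. When the 7505 genes were divided into 3 bands of mean level, 19.3% of the 2487 in the brightest band fell and 9.29% rose. In the dimmest band 7.38% fell and 4.67% rose. Since many metabolic and muscle genes lie in the brightest band, its shares are the closer background for them. In whole embryos, fewer cells of a type and less RNA per cell cannot be told apart.

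Genes of muscle, lens, mitochondria and yolk made up most of the largest agreeing falls. Among genes with no clone name, ranked by the called probe with the smallest change, the first was tmem38a (NM_200900), a potassium channel of the sarcoplasmic reticulum. That probe read 7.48, 7.28 and 7.15 in MO-Tbx5a and 9.82 and 9.83 in MO-Ct (-2.52, SE 0.19, limma adjusted p = 5.75e-06), and the second probe changed by -2.88. Separation of the groups on every called probe was a condition of this ranking, so it is not a result about these genes. tpma (NM_131105), alpha-tropomyosin of the muscle thin filament, fell on its 3 probes by -1.88 to -3.29. On the least changed of them it read 11.18, 10.75 and 10.47 in MO-Tbx5a and 12.49 and 12.86 in MO-Ct. The other genes of this rank were rab5if, the crystallins crygm2d3 and cryba4, and 4 mitochondrial genes. These were hadh and acaa2, both of fatty acid oxidation, uqcrfs1, the Rieske protein of complex III, and slc25a11, the oxoglutarate carrier. akirin1, the peptidase thop1 and afp4, an apolipoprotein-like gene of the yolk layer, completed the 12. Their changes on the ranking probe ran from -1.55 for afp4 to -2.19 for rab5if. In rab5if, hadh, uqcrfs1, acaa2 and thop1 the remaining probes were not called. Those probes changed by far less, from -0.44 for hadh to 0.13 for thop1. crygm2d3 had the widest error (-1.87, SE 0.40, limma adjusted p = 0.00277), and under eBayes with trend and robust variance its ranking probe was no longer called.

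The largest agreeing rises were smaller. egln3, a prolyl hydroxylase that marks hypoxia-inducible factor for degradation, read 11.73, 10.16 and 10.92 in MO-Tbx5a and 10.01 and 8.99 in MO-Ct on its less changed probe. The arrays scattered widely and the lowest MO-Tbx5a value was just above the highest MO-Ct value. Its change was 1.44 (SE 0.38, limma adjusted p = 0.0098), and it was 0.93 and no longer called without MO-Ct replicate 2. tcf7l2, a transcription factor of the Wnt pathway, had the same change with far less scatter (10.59, 10.27 and 10.24 in MO-Tbx5a, 8.95 and 8.9 in MO-Ct, SE 0.14, limma adjusted p = 1.83e-05), while the remaining probe changed by -0.14. sox9a, a transcription factor of cartilage and neural crest, rose on both probes (1.15 and 1.52), as did ucmab (1.3 and 1.6), a cartilage matrix gene. ppp1r14c, an inhibitor of protein phosphatase 1, rose on all 4 probes (1.22 to 1.58), and npb, which encodes neuropeptide B, on all 3 (1.16 to 1.79). nr5a1b, hdlbpa, dolpp1, myl9b, yod1 and wdr21 completed the 12. In each of these 6 genes the remaining probes changed by far less, down to -0.22 for yod1.

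Mitochondrial energy genes fell together. ATP synthase makes ATP from the proton gradient built by the respiratory chain. Of its 12 genes with 2 or more probes 9 fell and none rose, with a median change of -0.89, beside -0.04 over all 7505 genes. All 12 lay in the brightest band, of which 19.3% fell. On the 3 MO-Tbx5a arrays the median of the 12 genes was -0.8, -0.9 and -1 from the MO-Ct mean, against -0.04 and 0.04 on the MO-Ct arrays. atp5pb, a stalk subunit, read 12.01, 11.53 and 11.47 in MO-Tbx5a and 12.99 and 13.22 in MO-Ct on its less changed probe (-1.44, SE 0.18, limma adjusted p = 7.04e-05). Its second probe changed by -2.09, so the probes of atp5pb agreed in direction and differed in size. atp5mc1 and atp5mc3b, which encode the membrane ring, fell by means of -1.7 and -1.5 over their probes. atp5f1b, the catalytic beta subunit, had 4 of 5 probes lower with a mean of -1.37. atp5f1c, the gamma subunit, had 1 probe, which was lower by -1.72. The count of 9 was the same without each of the 5 arrays in turn.

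Complex I, which takes electrons from NADH, had 9 of 17 genes lower and none higher (52.9%, median -0.7). The list was formed from symbols, so assembly factors such as ndufaf2 are counted in it beside the subunits. Its median was -0.49 with the brightest probe of each gene. The MO-Tbx5a arrays had medians of -0.7, -0.75 and -0.64 over these genes and the MO-Ct arrays 0.02 and -0.02. ndufv1, the NADH-binding subunit, fell on its 3 probes by -0.48 to -2.23, and ndufa9a, ndufa13 and ndufb8 by means of -1.51, -1.22 and -1.19. Not every subunit moved. ndufa1 had 1 probe at 0.42, which was called, and another at -0.19, and the single probe of ndufa10 changed by 0.08. Complexes II to IV had 10 of 23 genes lower and none higher (median -0.47), led by cox6a1, cox4i1, uqcrfs1 and cox5aa with means of -1.02 to -1.31. cox5aa, a subunit of cytochrome c oxidase, read 14.12, 14.12 and 13.63 in MO-Tbx5a and 14.87 and 15.04 in MO-Ct (-1, SE 0.17, limma adjusted p = 0.000572), and its second probe gave -1.04. Single-probe genes of both lists were lower in 17 of 24 (complex I) and 11 of 16 (complexes II to IV) and higher in none. Over all single-probe genes 1240 of 5287 were lower. These counts depended on the controls. Complex I had 5 genes lower without MO-Ct replicate 2, and complexes II to IV had 3 without MO-Ct replicate 1 and 6 without MO-Ct replicate 2.

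**Figure D2:**
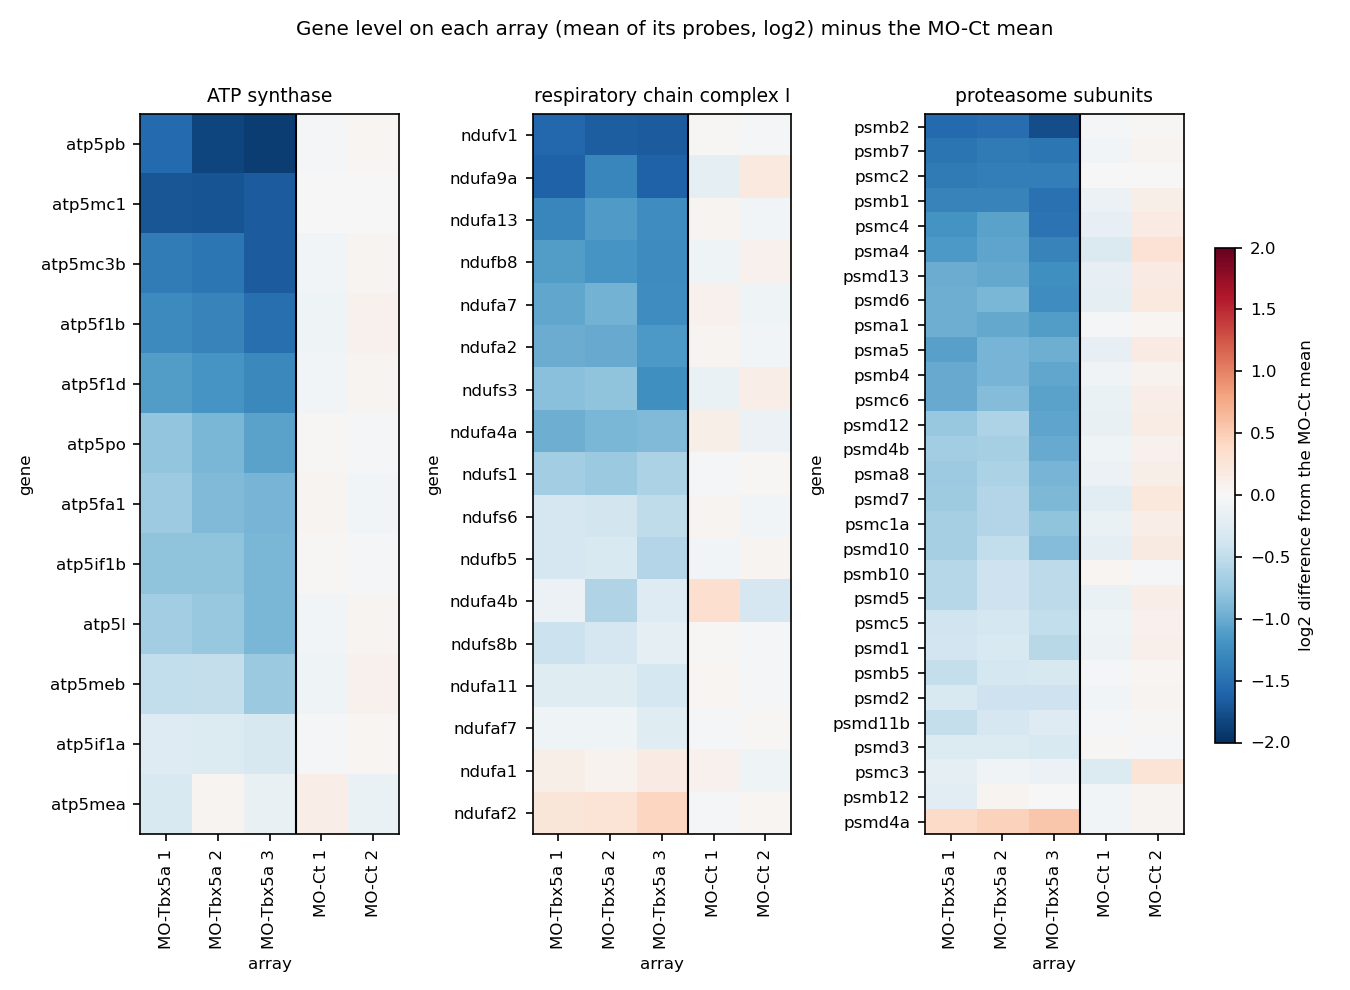
Level of each gene of ATP synthase (12 genes), complex I (17) and the proteasome (29) on each array, as the mean of its probes minus the mean of both MO-Ct arrays (log2, blue lower, red higher). The 3 MO-Tbx5a columns left of the line are blue for most genes and close to one another, while psmd4a, ndufa1 and ndufaf2 are red in them.

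The tricarboxylic acid (TCA) cycle, which feeds the respiratory chain, had 12 of 29 genes lower and 1 higher (41.4% and 3.45%, median -0.38). Its median was -0.26 with the brightest probe of each gene. Both malate dehydrogenases led. mdh1aa, the cytosolic enzyme, fell by -1.33 and -1.65 on its probes. The mitochondrial mdh2 fell on all 5 probes by -0.87 to -1.42, and on the least changed read 13.18, 12.83 and 12.74 in MO-Tbx5a and 13.73 and 13.84 in MO-Ct (SE 0.14, limma adjusted p = 0.000467). sdha and idh3b fell by means of -0.75 and -0.64. fh, fumarase, was the gene that rose, by 0.47 and 0.49 on its probes. pdha1b, a subunit of pyruvate dehydrogenase with a single probe, was higher by 0.84 and its paralogue pdha1a averaged -0.36 with 1 of 2 probes lower. Without MO-Ct replicate 2 the TCA count was 6. The mitochondrial ribosome, which translates the proteins encoded in mitochondria, had 9 of 30 genes lower and none higher (30%, median -0.45), and 18 of its 35 single-probe genes were lower. Its median was -0.33 with the brightest probe of each gene, and 24 of the 30 lay in the brightest band (19.3% lower). mrps30, mrpl45, mrpl21 and mrps23 led with means of -1 to -1.14. Its count was 5 without MO-Ct replicate 2.

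Genes of protein turnover and folding fell as well. The proteasome degrades ubiquitin-tagged proteins and consists of a core (psma and psmb genes) and a cap (psmc and psmd genes). Of 29 genes 17 fell and 1 rose (58.6% and 3.45%, median -0.77), and 28 of the 29 had a mean change below 0. The median was -0.52 with the brightest probe of each gene, and 25 of the 29 lay in the brightest band (19.3% lower). The core subunit psmb2 read 13.71, 13.75 and 13.83 in MO-Tbx5a and 14.6 and 14.56 in MO-Ct on its less changed probe (-0.82, SE 0.11, limma adjusted p = 0.000156), with -2.41 on the other. psmb7 fell on all 5 probes (-0.61 to -2.44), and psmc2, an ATPase of the cap, fell by -1 and -1.78. psma1 had 2 of 3 probes lower. The exception was psmd4a, a ubiquitin receptor, which rose on 2 of 3 probes (0.66 on the smaller), while its paralogue psmd4b fell on both. Without MO-Ct replicate 2 the count was 8 of 29.

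The CCT chaperonin folds actin and tubulin, and prefoldin hands them to it. Of 12 such genes, all in the brightest band, 6 fell, none rose and 3 had probes in conflict (median -0.52). In that band 19.3% of genes fell. The count of 6 was 4 without MO-Tbx5a replicate 1 and 3 with replicate numbers in the fit. cct5, cct7 and cct2 fell by means of -1.27, -1.25 and -0.89 and pfdn6 by -0.87, while tcp1 had 2 of 4 probes lower and a range of -1.14 to 0.12. Tubulins had 4 of 14 genes lower and none higher (28.6%, median -0.5). Their median was -0.29 with the brightest probe of each gene, and 12 of the 14 lay in the brightest band. Among those lower were tuba7l and the 4 probes of tubb4bl (means -1.16 and -1). The list of stress and protein folding in the endoplasmic reticulum had 13 of 43 genes lower and 2 higher. Its median was -0.3, and -0.13 with the brightest probe of each gene. The falls were led by manf, a secreted stress-response factor, ssr3 and ssr1 of the translocon, and chac1. hspa5, the main chaperone of this compartment, fell on 4 of 6 probes with a mean of -0.39. p4hb and vldlr rose. This count was 8 without MO-Ct replicate 2. The heat shock list had 8 of 34 lower and 2 higher (23.5% and 5.88%), and 19 of the 34 lay in the brightest band (19.3% lower). Its median was -0.15, and -0.11 with the brightest probe of each gene, so no direction is given for this list. hsp70l, which is induced by stress, read 8.92, 9.23 and 9.35 in MO-Tbx5a and 10.36 and 10.98 in MO-Ct (-1.5, SE 0.25, limma adjusted p = 0.000533). hspb8 and hspa8 rose in the same list, the second with 6 of 11 probes higher.

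Initiation factors load the ribosome on mRNA. Of 39 such genes 12 fell and 1 rose (30.8% and 2.56%, median -0.34). Their median was -0.11 with the brightest probe of each gene, and 32 of the 39 lay in the brightest band (19.3% lower). eif6, which keeps the large ribosomal subunit free, read 9.61, 9.6 and 9.33 in MO-Tbx5a and 10.44 and 10.66 in MO-Ct (-1.04, SE 0.15, limma adjusted p = 0.000207). eif3k and eif3i fell by means of -0.95 and -0.91, and eif4ebp1, a repressor of initiation, had 4 of 5 probes lower (mean -1.24). eif4g2b rose on its 3 probes (0.51 to 1.28). Cytoplasmic ribosomal proteins, all 57 in the brightest band, had 9 lower and 1 higher, or 15.8% lower beside 19.3% for that band. Their median was -0.11, and 0.08 when the brightest probe stood for each gene, so no direction is given for the family. rps6, rps23 and rpl8 fell by means of -0.74 to -0.81 and rps27.2 rose by 0.72 and 0.86. The lists of initiation factors and ribosomal proteins were not compared by a test.

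Glutathione and redox enzymes, which remove peroxides and conjugate toxins, had 14 of 37 genes lower and none higher (37.8%, median -0.37). The peroxiredoxins prdx2 and prdx3 fell by means of -1.44 and -1.42. gstp1.2, a glutathione transferase, fell on 4 probes by -1.13 to -1.66. The list was formed from symbols, and txnl4a (mean -1.2) is counted in it by its name, not as such an enzyme. cat, catalase, had 1 of 3 probes lower (mean -0.26), and gclc, the rate-limiting enzyme of glutathione synthesis, 1 of 3 higher (mean 0.33). The lysosomal hydrolases and cathepsins had 10 of 29 lower and none higher (median -0.37), led by naga, ctsba, npc2.1 and ppt1 with means of -1.11 to -1.3. On naga the probes ran from -0.56 to -2.19.

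Fast skeletal muscle, the bulk of the somite at this stage, had 19 of 47 genes lower and 2 higher (40.4% and 4.26%, median -0.4, and -0.2 with the brightest probe of each gene), and 32 of the 47 lay in the brightest band. The list also holds chaperones and genes shared with other muscle, so its counts are not particular to fast fibres. The median on the MO-Tbx5a arrays was -0.27, -0.57 and -0.41 against -0.02 and 0.02 on the MO-Ct arrays. Beyond tmem38a and tpma, mylpfb, a regulatory myosin light chain, read 14.85, 14.75 and 14.98 in MO-Tbx5a and 16.28 and 16.15 in MO-Ct on its less changed probe (-1.35, SE 0.18, limma adjusted p = 0.000109). Its paralogue mylpfa, the defining marker of fast fibres, had 2 of 3 probes lower, and the marker tnnt3b 2 of 4. pvalb2, a parvalbumin that buffers calcium, read 14.79, 14.64 and 14.95 in MO-Tbx5a and 16.09 and 16.12 in MO-Ct (-1.31, SE 0.20, limma adjusted p = 0.000262). Single-probe muscle genes were lower in 9 of 17 and higher in 1. The members that rose were ryr1b, the calcium release channel, on 4 of 7 probes (mean 0.42), and ampd1, the AMP deaminase of muscle, by 0.54 and 0.84 at values near the lower end of the scale. The count of 19 was 15 without MO-Ct replicate 1, the lowest over the 5 arrays.

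Slow muscle, with 9 such genes, had 2 lower (myl10 and smyhc3) and 1 higher (tpm3). These shares were 22.2% and 11.1%, and 7 of the 9 genes lay in the brightest band (19.3% lower). The slow myosin marker smyhc1 had none of 3 probes called and a mean of 0.03. With quantile normalisation 1 gene of this list fell. Glycolytic genes, several of them muscle isoforms, had 10 of 32 lower and 1 higher (31.2% and 3.12%, median -0.27, and -0.05 with the brightest probe of each gene). ldhba, lactate dehydrogenase, fell on 4 probes by -0.93 to -2.21, and gapdh on 4 by -0.53 to -1.83. aldoab, the aldolase of muscle, read 15.01, 14.95 and 15.12 in MO-Tbx5a and 16.73 and 16.36 in MO-Ct on its less changed probe (-1.52, SE 0.14, limma adjusted p = 1.42e-05). pgam2, which the fast muscle list also holds, fell by a mean of -1.15. pfkmb, a muscle phosphofructokinase, rose by 0.85 and 0.96. hk1 had 1 of 2 probes higher and the single probe of hk2 was lower by -0.82. The count was 6 without MO-Ct replicate 1.

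Heart genes moved in both directions. Of 16 heart muscle and chamber genes with 2 or more probes 3 fell and 3 rose (18.8% each), beside 13.1% lower and 7.82% higher over all genes. A further 3 had probes in conflict, and the median was 0.12. actc1a, a cardiac actin, fell on all 4 probes by -0.54 to -2.4. popdc2, a membrane protein of heart and muscle needed for normal heart rhythm, read 8.33, 8.28 and 7.97 in MO-Tbx5a and 9.04 and 9.48 in MO-Ct on its less changed probe (-1.07, SE 0.16, limma adjusted p = 0.000305), and popdc3 fell by a mean of -0.55. The atrial natriuretic peptide gene nppa had 2 of 4 probes higher, with 5.89, 5.72 and 5.89 in MO-Tbx5a and 5.57 and 5.31 in MO-Ct on the smaller (0.39, SE 0.13, limma adjusted p = 0.0273), a small difference near the lower end of the scale. myh7l and csrp3 rose by means of 0.42 and 0.52. The pan-cardiac marker myl7 changed by 0.41 on both probes, of which 1 was called, and cmlc1 on none of 3. In the list of cardiac transcription factors and signals 1 of 23 genes fell (hopx, mean -0.88) and 1 rose (mef2ca, on 2 of 4 probes). Its shares of 4.35% each were below the background of 13.1% lower and 7.82% higher. nkx2.5 averaged -0.31 with neither probe called, and the single probe of nkx2.7 was lower by -0.58.

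**Figure D3:**
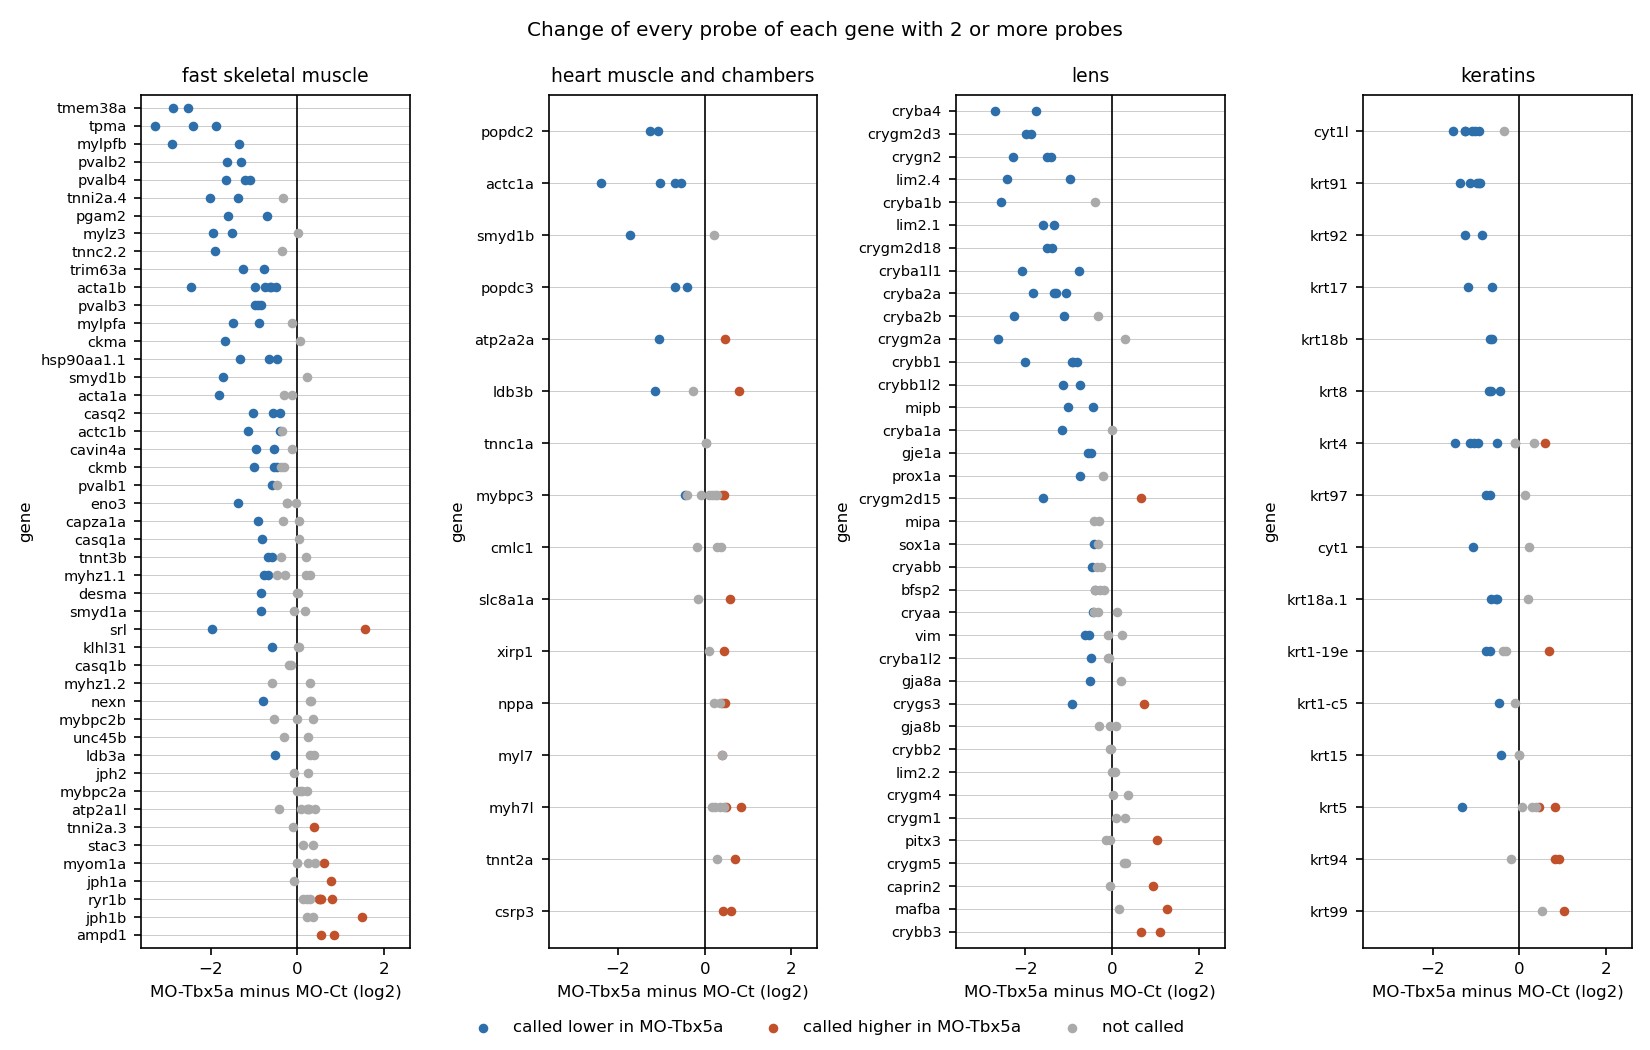
Change of every probe (x axis, MO-Tbx5a minus MO-Ct, log2) of each gene with 2 or more probes in the lists of fast skeletal muscle, heart muscle and chambers, lens, and keratins, with genes sorted by their mean change. Blue points were called lower, red points higher and grey points were not called. Fast muscle, lens and keratins have long runs of blue at the top, while heart genes lie on both sides of 0.

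Pectoral fin bud genes had 6 of 25 lower and 2 higher (24% and 8%, median -0.27). aldh1a2, which makes retinoic acid, fell by -0.53 and -1.33, and hoxa13b read 6.7, 6.95 and 6.81 in MO-Tbx5a and 7.71 and 7.46 in MO-Ct on its less changed probe (-0.77, SE 0.13, limma adjusted p = 0.000659). and2, an actinodin of the fin fold, had 2 of 3 probes lower. hoxd13a fell by a mean of -0.64, with arrays of both groups overlapping on a called probe (7.76, 8.12 and 7.42 in MO-Tbx5a, 7.96 and 8.82 in MO-Ct). fgf8a and sall4 rose by means of 0.56 and 0.49. fgf10a, the growth factor of the limb field, had neither of 2 probes called (mean -0.08). Most of these genes are also expressed elsewhere in the embryo, hoxa13b and hoxd13a in the tail. Without MO-Ct replicate 1 or without MO-Ct replicate 2 the count lower was 3.

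In the lens, 14 of 37 genes fell and 1 rose (37.8% and 2.7%, median -0.37), and a further 19 of 33 single-probe genes were lower. The crystallins fill lens fibres with soluble protein. cryba4 read 11.72, 11.8 and 11.72 in MO-Tbx5a and 13.42 and 13.57 in MO-Ct on its less changed probe (-1.75, SE 0.20, limma adjusted p = 5.09e-05). The defining marker crygn2 fell on its 3 probes by -1.4 to -2.29. lim2.4, a membrane protein of lens fibres, fell by -0.97 and -2.43. Alpha crystallins moved less, with 1 of 4 probes of cryaa lower (mean -0.26) and the single probe of cryaba at 0.16, not called. crybb3 rose by 0.67 and 1.1. Gamma crystallins of the crygm2d group are near-identical copies whose probes can share transcripts, so a value for a single copy is uncertain. 9 genes fell without MO-Ct replicate 2. Epithelial keratins, another family of close copies, had 8 of 16 genes lower and 1 higher (50% and 6.25%, median -0.43). Their median was -0.18 with the brightest probe of each gene, and 13 of the 16 lay in the brightest band (19.3% lower). krt91 fell on all 5 probes (-0.9 to -1.36) and cyt1l on 6 of 7. krt92 read 17.07, 16.63 and 16.51 in MO-Tbx5a and 17.69 and 17.48 in MO-Ct on its less changed probe (-0.85, SE 0.17, limma adjusted p = 0.00203). krt94 had 2 of 3 probes higher. The defining epidermal markers krt4 and krt5 had probes in conflict, 5 of 9 lower and 1 higher for krt4, and 1 of 6 lower and 2 higher for krt5. The wider list of epidermis and periderm, which holds the keratins, had 15 of 37 lower and 2 higher (40.5% and 5.41%, median -0.29). Its median was -0.11 with the brightest probe of each gene, and 29 of the 37 lay in the brightest band. agr1 and efemp2b led the list (means -1.46 and -1.22). Without MO-Ct replicate 1 the counts lower were 4 for keratins and 9 for epidermis.

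The yolk syncytial layer packs yolk lipid into lipoproteins for the embryo. Of 28 genes of this layer and of lipoproteins 11 fell and 2 rose (39.3% and 7.14%, median -0.43). The medians on the MO-Tbx5a arrays were -0.2, -0.46 and -0.63, a wider spread than in the mitochondrial lists, against 0 on both MO-Ct arrays. afp4 read 13.51, 13.11 and 12.74 in MO-Tbx5a and 14.59 and 14.76 in MO-Ct (-1.55, SE 0.20, limma adjusted p = 9.45e-05). fabp1b.1, a fatty acid binding protein, fell on 3 probes by -1.09 to -1.56, and apoa4b.1 by -0.97 and -1.03. apoa1a had 1 of 2 probes lower and apoa1b probes in conflict (-0.87 and 0.73). The copper carrier cp and the iron exporter slc40a1 rose on 2 probes each.

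**Figure D4:**
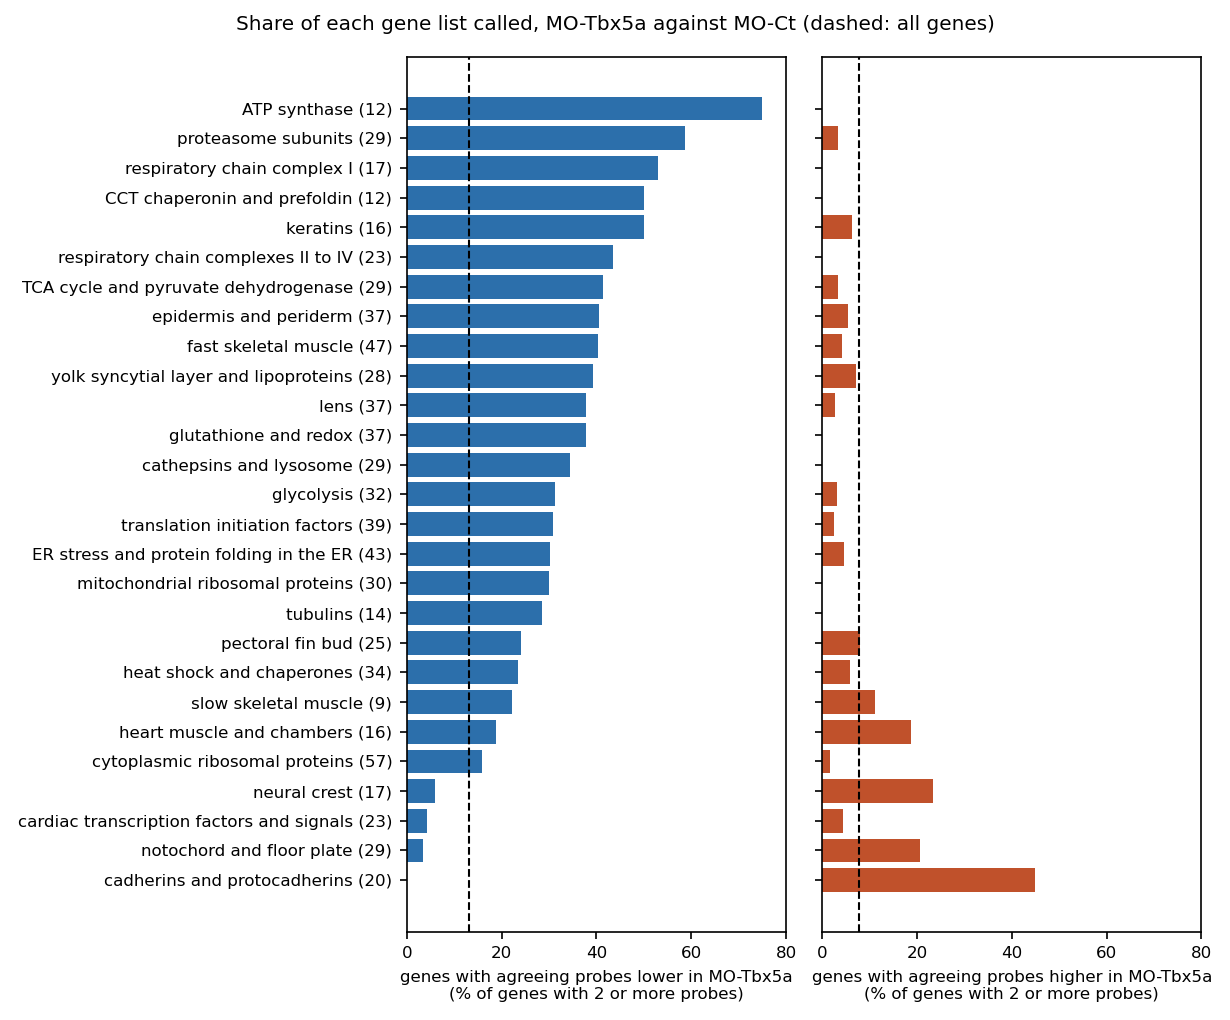
Percentage of genes in each list that fell (left, blue) or rose (right, red) in MO-Tbx5a against MO-Ct, among genes with 2 or more probes (their number in brackets), with dashed lines at the share over all 7505 genes (13.1% lower, 7.82% higher). ATP synthase has the longest bar of the lists shown for falls (75%) and cadherins and protocadherins for rises (45%).

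Among the lists described, fewer leaned to rises. Cadherins and protocadherins are adhesion molecules, and the clustered protocadherins label single neurons. Of 20 such genes 9 rose and none fell (45%, median 0.47, and 0.25 with the brightest probe of each gene), while 14 of 29 single-probe genes were higher and 4 lower. On the MO-Tbx5a arrays the median was 0.5, 0.34 and 0.42 against 0.02 and -0.02 on the MO-Ct arrays. pcdh1gb2 rose on its 3 probes, with 8.42, 8.28 and 8.37 in MO-Tbx5a and 7.65 and 7.73 in MO-Ct on the least changed (0.67, SE 0.13, limma adjusted p = 0.0014). pcdh19, a protocadherin outside the clusters, had 4 of 5 probes higher, and its probe with the smallest called change read 11.35, 11.29 and 11.04 in MO-Tbx5a and 10.54 and 10.39 in MO-Ct (0.76, SE 0.13, limma adjusted p = 0.000637). pcdh2g28 rose on 3 of 4 probes (mean 0.92) and cdh4, R-cadherin, on 2 of 4 (mean 0.62). The single probes of cdh1 and cdh10a were not called (0.28 and 0.26). Clustered protocadherins share their 3' exons, so probes of different members can report the same transcripts and the members are not independent. The count was 7 without MO-Ct replicate 1, the lowest over the 5 arrays. The list of differentiating neurons, where many of these genes are used, had 6 of 60 genes higher and 6 lower with a median of -0.01.

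Notochord and floor plate genes had 6 of 29 higher and 1 lower (20.7% and 3.45%, median 0.28). A further 3 had probes in conflict, and 7 of the 29 had a mean change below 0. With an FDR under 0.01 the count higher was 4, and at a fold change above 2 it was 2. In a fit on the mean of each gene's probes 10 members were higher and 4 lower. The notochord is the rod of vacuolated cells under the neural tube that stiffens the embryo with a collagen sheath. col2a1a, the type II collagen of that sheath and a defining marker, rose on its 4 probes, with 17.06, 16.75 and 17.04 in MO-Tbx5a and 16.49 and 16.1 in MO-Ct on the least changed (0.66, SE 0.14, limma adjusted p = 0.00324). matn3a, ihhb and cav1 rose by means of 0.76, 0.73 and 0.59. The marker tbxta had 1 probe, which was higher by 0.56, and noto had neither of 2 probes called (mean -0.31). copb1, a coat protein of vesicles that the notochord needs but every cell uses, was the gene that fell (mean -1.05). Among 18 collagen genes 3 rose and 2 fell (16.7% and 11.1%), beside 7.82% and 13.1% over all genes. A further 4 had probes in conflict. col11a1a, col27a1a and col2a1a, collagens of cartilage and notochord sheath, were those that rose (means 1.18, 1.09 and 0.99), and col5a2a and col1a1a, of skin and connective tissue, those that fell (means -0.97 and -0.74).

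**Figure D5:**
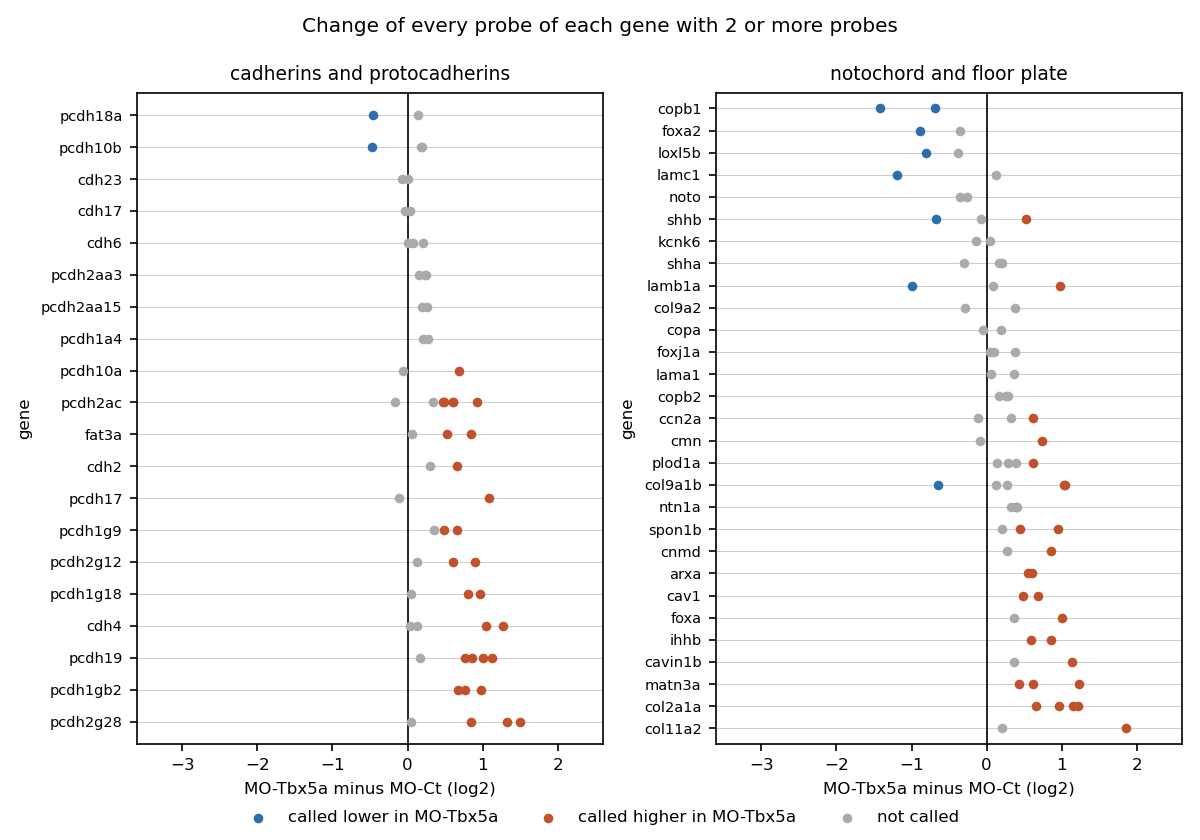
Change of every probe (x axis, MO-Tbx5a minus MO-Ct, log2) of the cadherin and protocadherin genes and of the notochord and floor plate genes with 2 or more probes, sorted by mean change. Red points were called higher, blue points lower and grey points were not called. Red points outnumber blue ones in both panels, with copb1 as the notochord gene with 2 blue probes.

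Neural crest genes had 4 of 17 higher and 1 lower, with a median of -0.06. sox9a was the member with the largest rise. tfap2c, phox2bb and nr2f2 rose with 2 probes called among 5, 3 and 6. In a fit on the mean of each gene's probes 1 member was higher and 4 were lower, so the list has no settled direction. The crest markers sox10 and foxd3 had none of their probes called, with means of -0.22 and -0.33. Without MO-Ct replicate 2 the count higher was 2.

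Families were also formed without any list, from symbols that share the letters before their first digit, where 10 or more such genes had 2 or more probes. Of these 79 families, krt had the largest share of genes lower (7 of 14), followed by psmd (5 of 12), mrps (4 of 10), cox (4 of 11) and eif (12 of 39). The aldehyde dehydrogenases (aldh, 4 of 13 lower, none higher) and the vps genes of endosomal sorting (4 of 15 lower, none higher) lay outside the lists described above, apart from aldh1a2 of the fin bud list. The pcdh family had the largest share higher (7 of 14, none lower), followed by the nuclear receptors (nr, 4 of 19, none lower). Lists and families overlap, so these counts do not add to those of the lists.

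Of 37 defining markers of 18 cell types 35 had a named probe, with MO-Ct means of 5.44 to 18.04. Detection above background was not tested, and both endothelial markers, kdrl and cdh5, were low (6.93 and 6.24 in MO-Tbx5a, 7.42 and 6.68 in MO-Ct). The second probe of kdrl changed by 0.14. The list of endothelium and blood vessels had 3 of 21 genes higher and 1 lower (14.3% and 4.76%, median 0.27). Of the 25 with 2 or more probes 4 rose (nppa, col2a1a, pax2a and foxa3) and 4 fell (mylpfa, tnnt3b, crygn2 and her4.1). Over all genes with 2 or more probes 7.82% rose and 13.1% fell. Of the 10 with 1 probe 1 was higher and 4 were lower, beside 654 higher and 1240 lower of all 5287 single-probe genes. Among the markers lower were the haemoglobin gene hbae3 (-0.81) and the myeloid gene lyz (-1.09). The other myeloid marker, spi1b, went the other way, with 1 of 2 probes higher (0.76). The part that changes in tissue proportions had in the values above was not tested.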

How the data were processed

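Gene expression was measured on 1-colour Agilent arrays (processed with Agilent Feature Extraction, per the submitters' processing notes in version 10.7 for MO-Tbx5a and MO-Ct and 9.1 for the miR-19a arrays). The authors corrected median signals by normexp with an offset of 16, normalised by cyclic loess and deposited log2 values, which were used as deposited (4.06 to 19.4, array medians 7.77 to 7.8). Columns of other content (probe accessions) came from 3 deposited scans and were identical in them. Accessions were matched, without versions, to RefSeq gene names of GRCz12tu. A symbol was found for 24716 of 39162 probes (63.1%), which gave 12792 symbols, 5287 of them with 1 probe. Unnamed probes stayed in the fit.

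The 8 arrays were fitted together by lmFit and eBayes with a mean for each group (limma 3.58.1, R 4.3.3), leaving 5 residual degrees of freedom, and p-values are two-sided. The fit was tested on simulated data. The labels give the miR-19a arrays another labelling kit, and the scans of these arrays did not follow their own columns of log2 values. Leaving those arrays out gave 7286 probes higher and 7750 lower. The authors call the arrays of a group biological replicates, but nothing in the labels says that they came from separate clutches. The p-values therefore measure the spread between these arrays, which may be technical. Arrays give no read depth, and their number limits the precision. Slides and scan batches of the 5 arrays are not analysed here.

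The 85 gene lists (27 of tissues, 17 of pathways, 41 of families) and the rules were chosen with earlier results of these data known. Genes were named as the 12 largest rises and 12 largest falls with agreeing, non-overlapping called probes, ranked by the called probe with the smallest change, and, per list, up to 4 rises and 4 falls plus the first 2 members. A gene that this rule selects is not reported here. Defining markers, tnnt3b, sox10 and foxd3 among them, were named besides, and ndufaf2 and psmd4b were named after their values were seen. Where a single probe stands for a gene with no call it is the brightest. The bands of mean level were added after seeing the data. Alternatives were other scalings, filters, thresholds, variance estimates and probe sets, and leaving out each array.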

Additional observations from a re-analysis of the deposited data

How the results depend on the processing

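Limits come first from the controls, of which there are 2 arrays, and from the thresholds. With each of the 5 arrays left out in turn, probes higher in MO-Tbx5a numbered 4807 to 7172 and probes lower 5336 to 7257, and genes with agreeing probes 372 to 606 higher and 646 to 929 lower. The lowest of each came without MO-Ct replicate 2, where the remaining control array is assumed to vary like the other groups. A fold change above 2 left 1247 probes higher and 1641 lower, and 58 genes higher and 145 lower. An FDR under 0.01 left 387 genes higher. Calling a gene only when every probe of it was called left 263 genes higher and 629 lower, and limma on the mean of all probes called 958 higher and 1560 lower. With probes designed on RefSeq mRNAs only, so with fewer probes tested, 4465 probes were higher and 6110 lower. Quantile normalisation, median centring, scaling to the 75th percentile, a mean of at least 6, the 5 arrays alone and another variance estimate kept these counts within 1.5 times. Replicate numbers were not shown to pair the arrays (correlations of deviations of 0 and 0.178 for the same numbers), and with the replicate block 574 genes were higher and 930 lower, while CCT and prefoldin genes lower numbered 3. Of the 24 named genes with the largest changes, over 312 refits none reversed and 3 values lost the call (egln3 in 2 and crygm2d3 in 1). Of 405 refitted list counts 45 moved by over 1.5 times. 25 of these were among the 27 counts at a fold change above 2, where proteasome genes lower, 17 in the main fit, numbered 3. With the brightest probe standing for each gene, the medians of 19 of 27 lists moved by more than the SD of the list's medians over the MO-Tbx5a arrays (n = 3). Among these, cytoplasmic ribosomal proteins and cardiac transcription factors changed sign (0.08 and 0.02). Where no cause is named, the cause was not tested.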

Other observations

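Other lists showed rises and falls within 1 pathway. In the Wnt pathway 7 of 44 genes rose and 5 fell (15.9% and 11.4%, median -0.01), beside 7.82% and 13.1% over all genes. axin1 rose by 1.01 and 1.08, sp5a and axin2 by means of 0.76 and 0.63, and tcf7l2 by a mean of 0.97. axin2 and sp5a are widely used as read-outs of Wnt signalling, but other members of the list fell and Wnt activity was not tested. ctnnbip1, dkk1b, wnt4 and wls fell (means -1.12, -0.75, -0.74 and -0.52). In the Notch and neural progenitor list 7 of 37 fell and 2 rose (18.9% and 5.41%, median 0.12). 30 of the 37 lay in the brightest band, of which 19.3% fell, so no direction is given for this list. The Notch target her4.1 read 12.61, 12.69 and 12.51 in MO-Tbx5a and 13.62 and 13.77 in MO-Ct on its less changed probe (-1.09, SE 0.16, limma adjusted p = 0.000202), and her3, fabp7a and sox21a fell by means of -0.96, -0.91 and -0.89. pou3f2b rose by 0.88 and 1.11.

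T-box factors had 2 of 13 genes higher (15.4%) and none lower, beside 7.82% higher and 13.1% lower over all genes. With 13 genes no direction is given for this family. Those higher were eomesb and mgaa (means 1.15 and 0.65). Hox genes had 3 of 39 higher and 6 lower (7.69% and 15.4%), near the 7.82% and 13.1% over all genes. Those with the largest falls were hoxa13b, hoxa10b, hoxd13a and hoxc12b, and those that rose were hoxa11b, hoxb6a and hoxc8a. Zinc finger proteins had 11 of 84 higher and 6 lower (13.1% and 7.14%). Lists of DNA replication (2 higher and 4 lower of 46) and of the p53 response (3 and 3 of 36) had shares lower under the 13.1% over all genes. Chromatin modifiers had 13 of 69 genes with probes in conflict, beside 9 that rose and 7 that fell (13% and 10.1%).

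Probes designed on Ensembl transcripts, most of which have no gene name here, were called in another balance than probes designed on RefSeq mRNAs. Of 7143 Ensembl probes 21.1% were higher and 12% lower, and of 25831 RefSeq probes 17% were higher and 23.4% lower. Among genes with 1 probe 654 of 5287 were higher and 1240 lower.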
